A study of Mus musculus with 8 samples.

Results

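The genes described here are the 6 functional variable (V) and constant (C) segments of the mouse immunoglobulin lambda light chain (Iglv1, Iglv2, Iglv3, Iglc1, Iglc2 and Iglc3), the heavy chain variable segment Ighv1-72, and the kappa constant gene Igkc as the reference for the lambda to kappa ratio. They were chosen by gene symbol, as the rows of the count table that bear these names, and all 8 were found among its 24259 rows. All 8 also passed the filter on low counts that left 12744 genes for testing.

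RNA was sequenced from B cells of C57BL/6 mice that bound the hapten NP, carried little surface IgD and expressed B220. They were sorted from lymph nodes 3 days after subcutaneous NP-OVA with LPS in alum, and are named pre-GC B cells, cells that have not yet formed germinal centers (GCs). All recipients were CD45.1 Sap-/- mice, whose own T cells cannot sustain a GC, and the help came from OT-II T cells, transferred 1 day before immunization, whose receptor recognizes an ovalbumin peptide. In the HET group (4 libraries) the donor T cells were CD4-Cre × Bcl6 fl/+, with 1 Bcl6 allele floxed, and in the WT group (4 libraries) they carried CD4-Cre alone. CD4-Cre acts in T cells, so Bcl6 was altered in the helper cells and the sequenced B cells carried no targeted gene by which the group names could be checked. Per the study's methods, recipients of a group were pooled and 4 repeats of 200 cells were sorted from that pool. P-values therefore measure only how repeated sorts of cells from the same pool, and their libraries, vary. A difference between T cell genotypes cannot be told apart from one between the pools. The animals' ages are not given in the sources used here.

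A B cell joins a heavy chain to either a kappa or a lambda light chain, and in the mouse most naive B cells carry kappa. The antibody response of C57BL/6 mice to NP is a classical exception, in which many responding cells carry a lambda1 light chain paired with a heavy chain built on the V segment V186.2, now named Ighv1-72. The mouse lambda locus is small and arranged in clusters, so that Iglv1 recombines to the joining segments of Iglc3 and Iglc1 that lie downstream of it, while Iglv2 and Iglv3 recombine mainly to that of Iglc2.

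How well reads can be assigned among these segments depends on how alike they are. Of the 305 coding bases in the V exons of Iglv1 and Iglv2, 9 differed (identity 97.0%), whereas Iglv3 shared 52.2% and 50.9% with them. The final 270 bases of both exons are shown because the lambda1 and lambda2 counts rest on these differences, with the 7 bases that differ between them in capitals. On GRCm38, minus strand, the stretch of Iglv1 is chr16:19085017-19085286 and that of Iglv2 is chr16:19260401-19260670.
Iglv1: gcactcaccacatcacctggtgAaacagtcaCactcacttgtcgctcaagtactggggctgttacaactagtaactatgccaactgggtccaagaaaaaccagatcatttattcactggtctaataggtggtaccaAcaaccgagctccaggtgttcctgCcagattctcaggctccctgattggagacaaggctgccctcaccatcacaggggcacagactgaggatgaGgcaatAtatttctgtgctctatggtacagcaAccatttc
Iglv2: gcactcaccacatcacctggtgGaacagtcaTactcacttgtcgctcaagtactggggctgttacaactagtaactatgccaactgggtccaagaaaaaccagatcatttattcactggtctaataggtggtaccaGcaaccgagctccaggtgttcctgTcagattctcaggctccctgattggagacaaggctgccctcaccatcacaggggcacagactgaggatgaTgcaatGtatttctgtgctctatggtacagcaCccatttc

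Ighv1-72 had a closer relative in Ighv1-62-3, another segment of the same family, which differed at 3 of 305 V exon bases (identity 99.0%). The first 300 bases of both V exons are shown for that reason, with the 3 differing bases in capitals, from the minus strand of GRCm38 (chr12:115757989-115758288 for Ighv1-72 and chr12:115461004-115461303 for Ighv1-62-3). Of the 50-base windows of the Ighv1-72 transcript, 26 of 347 (7.49%) occurred in no other immunoglobulin transcript of GENCODE M21, and 237 were shared with Ighv1-62-3. With 100-base windows 170 of 297 (57.2%) occurred nowhere else, and the read length is not given in the sources used here. Ighv1-62-3 held 4 to 28 counts per library against 317 to 2500 for Ighv1-72, so the assignment between them is uncertain but the counts stood almost wholly on the Ighv1-72 row.
Ighv1-72: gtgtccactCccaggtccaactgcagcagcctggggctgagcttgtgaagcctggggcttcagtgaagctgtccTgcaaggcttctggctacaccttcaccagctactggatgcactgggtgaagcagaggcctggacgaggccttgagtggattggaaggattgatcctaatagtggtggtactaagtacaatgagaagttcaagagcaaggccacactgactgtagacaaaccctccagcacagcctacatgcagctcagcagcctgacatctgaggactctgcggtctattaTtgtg
Ighv1-62-3: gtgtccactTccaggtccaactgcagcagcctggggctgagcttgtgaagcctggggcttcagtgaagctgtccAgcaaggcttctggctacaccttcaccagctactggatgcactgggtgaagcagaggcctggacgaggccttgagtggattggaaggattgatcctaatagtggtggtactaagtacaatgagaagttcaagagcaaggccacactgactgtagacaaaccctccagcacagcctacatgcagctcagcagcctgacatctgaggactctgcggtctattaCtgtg

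Among the lambda constant segments, Iglc2 and Iglc3 matched at 303 of 315 aligned coding positions (identity 96.2%), and Iglc1 was further away, with identities of 73.4% and 74.2%. An aligned stretch of 150 bases from the start of each constant exon is shown with capitals marking, in Iglc1, the 30 bases at which it differs from both others and, in Iglc2 and Iglc3, the 7 bases at which they differ from each other. All are on the minus strand of GRCm38, at chr16:19061920-19062069 for Iglc1, chr16:19198701-19198850 for Iglc2 and chr16:19065530-19065679 for Iglc3. Every 50-base window of Iglc1, Iglv3 and Igkc was unique to its gene, as were 89.5% of those of Iglc2, 89.3% of those of Iglc3, 77.8% of those of Iglv1 and 76.0% of those of Iglv2.
Iglc1: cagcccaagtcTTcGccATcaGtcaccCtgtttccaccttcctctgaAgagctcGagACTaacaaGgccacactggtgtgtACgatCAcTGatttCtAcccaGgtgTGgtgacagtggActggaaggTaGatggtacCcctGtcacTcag
Iglc2: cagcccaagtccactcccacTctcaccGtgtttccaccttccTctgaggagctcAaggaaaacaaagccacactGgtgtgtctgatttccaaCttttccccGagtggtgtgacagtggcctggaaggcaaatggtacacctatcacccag
Iglc3: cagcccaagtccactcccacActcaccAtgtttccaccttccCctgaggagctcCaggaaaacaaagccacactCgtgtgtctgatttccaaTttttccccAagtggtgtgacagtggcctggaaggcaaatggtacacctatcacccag

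Iglc3 has a further limit. An exon of the antisense gene 2010309G21Rik lies within it on the opposite strand and covers 93 of its 452 exon bases. That row held 4244 to 11089 counts per library, a number that stood at 0.653 to 0.734 of the Iglc3 count in every library. SMART-Seq2 does not mark the strand and the strand setting of the counting was not stated, so reads within those 93 bases cannot be assigned to either gene with certainty. The lambda J and pseudogene rows (Iglj1, Iglj3, Iglj3p and Iglc4) held 7 to 143 counts per library, and Igll1, the surrogate light chain of B cell precursors, held 0 counts in 7 libraries and 14 in WT replicate 4.

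Total counts ranged from 6652386 to 12559189 per library, and levels are given as CPM, counts per 1000000 scaled by edgeR's TMM factors. The B cell identity of the libraries was checked with 6 markers, among them the receptor chain Cd79a (3210 to 4000 CPM), and their summed level was 20000 to 20900 CPM in HET and 22900 to 25500 CPM in WT, without overlap. All 6 had a negative log2 fold change of HET over WT. None passed an adjusted p of 0.05 in edgeR, all 6 had an unadjusted p under 0.05 (7.22% of all genes tested did) and 3 were called by DESeq2. T cell markers (9 genes) summed to 160 to 324 CPM in HET and 77.5 to 265 CPM in WT, with Cd4 at 0 to 0.758 CPM. Myeloid markers (8 genes) summed to 29.6 to 72.8 CPM and 23.3 to 452 CPM, the highest in WT replicate 2 through Lyz2 (399 CPM). HET replicate 1 stood apart in Jchain, the joining chain of secreted IgM. Jchain was 1580 CPM there, against 0.505 to 97.1 CPM in the other 7 libraries, and the 7 antibody-secreting cell markers summed to 2100 CPM. Of the other markers on that list, Mzb1 (58.5 CPM) and Irf4 (120 CPM) were also highest in HET replicate 1. The rest were second highest there. Prdm1 (10.2 CPM) was higher in WT replicate 4 (10.9 CPM) and Xbp1 (297 CPM) in HET replicate 4 (313 CPM). Sdc1 (33.5 CPM) was higher in WT replicate 2 (40.3 CPM) and Tnfrsf17 (4.1 CPM) in WT replicate 1 (5.23 CPM). Group differences are therefore also given without HET replicate 1. Fewer cells of a type and less RNA per cell cannot be told apart in these libraries.

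Together the 8 genes took 0.930% to 1.74% of all counts, the highest share being that of HET replicate 1 and the next 1.11%. Compared per kilobase of exon, Igkc had the highest level, 10529 ± 5232 CPM per kb (SD, n = 8 libraries), and exceeded the next gene in all 8 libraries. It was 8707 ± 973 CPM per kb without HET replicate 1 (SD, n = 7 libraries). Iglc1 (2624 ± 988 CPM per kb), Iglv1 (2584 ± 970 CPM per kb), Iglc3 (2437 ± 250 CPM per kb) and Iglc2 (2426 ± 529 CPM per kb) followed at levels that did not differ beyond their spread. The place of Iglc2 among them rests on a length of 612 bases over all its annotated exons, and a shorter length would raise it. Iglv2 came next at 1182 ± 636 CPM per kb and was below Iglc2 in all 8 libraries. Iglv3 (235 ± 45.7 CPM per kb) and Ighv1-72 (226 ± 186 CPM per kb) were lowest and not separated, Iglv3 being higher in 6 of 8 libraries. Only 7.49% of the 50-base windows of Ighv1-72 were unique to it, against 100% for Iglv3. The treatment of reads that match several segments was not stated, so the Ighv1-72 level may be understated. By mean deposited TPM, Igkc ranked 2, Iglc1 13 and Ighv1-72 207 among all rows.

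Iglv1, the V segment of the lambda1 and lambda3 chains, lies at chr16:19085017-19085500 on the minus strand. In HET replicates 1 to 4 its level was 973, 685, 766 and 1792 CPM, and in WT replicates 1 to 4 it was 824, 994, 1336 and 714 CPM. HET replicate 4 was the highest of all 8 and HET replicate 2 the lowest, so the groups overlapped throughout. Iglv1 took 10.9% to 43.3% of all light chain V counts and ranked 1 among 127 light chain V rows in 6 of 8 libraries. It ranked 3 in HET replicate 1, behind Igkv8-30 and Igkv8-21, and 2 in WT replicate 4, behind Iglv2. A single lambda V segment thus carried more counts than any of the 124 kappa V segments in 7 of 8 libraries.

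Iglv2, the V segment of the lambda2 chain, lies at chr16:19260401-19260859 on the minus strand. Its level was 435, 536, 337 and 230 CPM in HET and 519, 187, 301 and 916 CPM in WT. WT replicate 4 was the highest and WT replicate 2 the lowest, a 4.89-fold range that lay within a single group. Iglv3, also called Vx and the most divergent lambda V segment, lies at chr16:19241207-19241690 on the minus strand. It was the steadiest of the V segments, at 91.2, 68.4, 112 and 84.9 CPM in HET and 78.4, 67.9, 107 and 106 CPM in WT, a 1.65-fold range.

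The lambda V counts were therefore divided differently from library to library. Iglv1 made up 64.9%, 53.1%, 63.0% and 85.1% of them in HET and 58.0%, 79.6%, 76.6% and 41.1% in WT. The share ran highest in HET replicate 4, and only in WT replicate 4 did Iglv2 (52.8%) exceed Iglv1. Iglv3 took 4.03% to 9.22%. The widest 95% Wilson interval of these shares was 2.10 percentage points, so the differences between libraries exceeded counting error, which is all that such intervals cover. The mean Iglv1 share was 66.5% ± 13.4 in HET and 63.8% ± 17.9 in WT (SD, n = 4 each), a difference of 2.71 ± 11.2 percentage points (SE, two-sided exact permutation p = 0.800, adjusted p over 5 such tests = 1). It was 3.25 percentage points without HET replicate 1 (exact permutation p = 0.800).

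The levels of Iglc1 and Iglc2 also varied from library to library. Iglc1, the constant gene of lambda1, lies at chr16:19061618-19062071 on the minus strand. Its level was 744, 922, 1003 and 2128 CPM in HET and 1083, 1293, 1495 and 862 CPM in WT, and HET replicate 4 was again highest while HET replicate 1 was lowest. Iglc2, the constant gene of lambda2, lies at chr16:19198396-19200351 on the minus strand. It stood at 1615, 1311, 1452 and 1026 CPM in HET and 1612, 1325, 1401 and 2138 CPM in WT, so here HET replicate 4 was lowest and WT replicate 4 highest. Iglc3, the constant gene of lambda3, lies at chr16:19065230-19065681 on the minus strand. Its level was 1259, 1223, 1068 and 963 CPM in HET and 1096, 971, 1194 and 1038 CPM in WT, the narrowest range of the 8 genes at 1.31-fold.

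Iglc1 took 20.6%, 26.7%, 28.5% and 51.7% of lambda constant counts in HET and 28.6%, 36.02%, 36.6% and 21.4% in WT. Iglc2 took 24.9% to 52.9% over the 8 libraries and was the largest of the 3 by counts in 6 of them. Iglc1 led by counts in HET replicate 4 and WT replicate 3. All annotated exons of Iglc2 together cover 612 bases, against 454 for Iglc1 and 452 for Iglc3. The Iglc2 transcript used for the windows was of nearly the same length as the others, with 409 windows of 50 bases against 405 and 403. Whether length favored Iglc2 in counts therefore depends on the length taken. Per kilobase with the 612 bases, Iglc2 was the highest of the 3 only in HET replicate 3, WT replicate 1 and WT replicate 4. A shorter length would raise its level per kilobase. The mean Iglc1 share was 31.8% ± 13.7 in HET and 30.6% ± 7.17 in WT (SD, n = 4 each), a difference of 1.22 ± 7.71 percentage points (SE, two-sided exact permutation p = 1, adjusted p = 1). Without HET replicate 1 it was 4.98 percentage points (exact permutation p = 0.629). With the antisense row added to Iglc3, an alternative chosen after seeing the data, the difference was 0.885 percentage points (exact permutation p = 0.943).

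**Figure D1:**
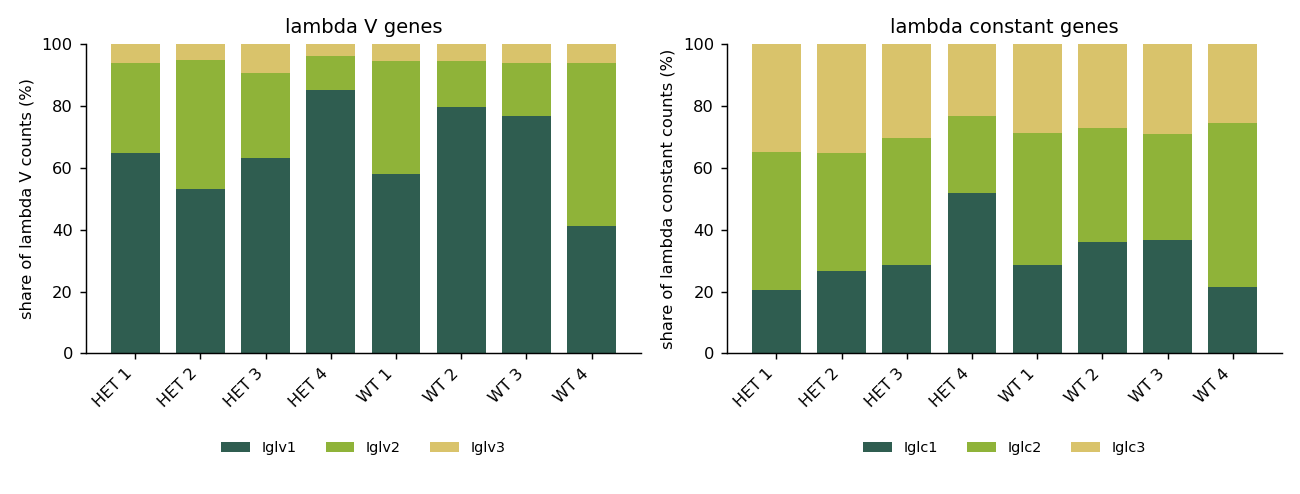
Share of lambda V counts held by Iglv1, Iglv2 and Iglv3 (left) and of lambda constant counts held by Iglc1, Iglc2 and Iglc3 (right), in percent, with 1 stacked bar per library. HET 4 has the largest Iglv1 and Iglc1 shares (85.1% and 51.7%), and WT 4 has the largest Iglv2 and Iglc2 shares (52.8% and 52.9%).

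Iglv1 and Iglc1 levels were related across the 8 libraries, as the plot of lambda composition shows for their shares. On log2 CPM, Pearson's r was 0.848 (exact permutation p = 0.00841, adjusted over 2 relations 0.0168) and Spearman's rho was 0.738 (exact permutation p = 0.0458, adjusted 0.0917). Without HET replicate 4 and WT replicate 3, the libraries farthest from the median, r was 0.225 over 6 libraries (exact permutation p = 0.650). Those 6 include HET replicate 1, where Iglc1 was the lowest of all 8 libraries (744 CPM) but Iglv1 was not (973 CPM). Without HET replicate 4 alone r was 0.642 (exact permutation p = 0.118), and without WT replicate 3 alone it was 0.826. Without HET replicate 1 alone r was 0.988, so its size depended on which libraries were included. The 2 rows belong to a single transcript in a lambda1 cell and share library and depth. Counts of lambda V were 0.345 to 0.512 of those of lambda constant.

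Igkc, the only constant gene of the kappa chain, lies at chr6:70726435-70726966 on the plus strand. Its level was 12387, 4446, 4650 and 3908 CPM in HET and 5456, 4529, 4303 and 5134 CPM in WT. HET replicate 1 was far above the rest and the other 7 libraries lay within 3908 to 5456 CPM. The summed level of the 3 lambda constant genes varied less, from 3456 to 4117 CPM in HET (mean 3678 ± 299.8, SD, n = 4) and 3589 to 4090 CPM in WT (mean 3877 ± 232, SD, n = 4). The highest library exceeded the lowest 1.19-fold for the lambda sum and 3.17-fold for Igkc.

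The lambda to kappa ratio of constant gene counts was accordingly 0.292, 0.777, 0.758 and 1.05 in HET and 0.695, 0.792, 0.951 and 0.787 in WT. Kappa counts exceeded lambda counts in 7 of 8 libraries, with HET replicate 4 the exception and HET replicate 1 the furthest from parity. Lambda took 22.6% of light chain constant counts in HET replicate 1 (95% Wilson interval 22.4% to 22.8%) and 41.0% to 51.3% in the other 7. The mean log2 ratio was -0.62 ± 0.80 in HET and -0.32 ± 0.19 in WT (SD, n = 4 each), a difference of -0.30 ± 0.41 (SE, two-sided exact permutation p = 0.714, adjusted p = 1). Without HET replicate 1 the difference turned to 0.09 (exact permutation p = 0.600), with ratios of 0.863 ± 0.165 in HET (SD, n = 3). With the counts of each group pooled, which weights libraries by their counts, the log2 difference was -0.66, and it has no replicate check. With 4 libraries against 4, the smallest p these tests can give is 0.0286.

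**Figure D2:**
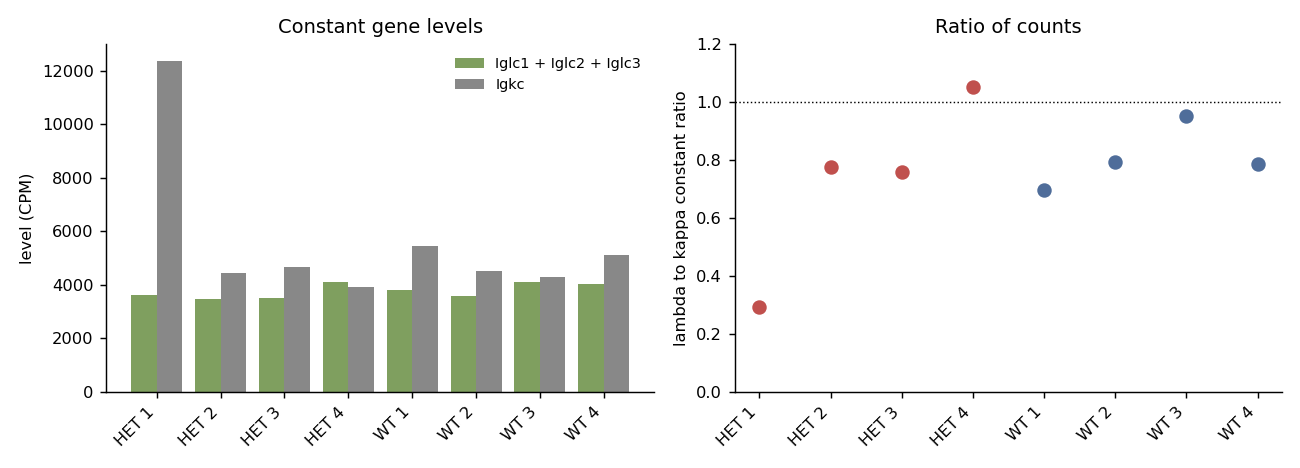
Left, summed level of Iglc1, Iglc2 and Iglc3 beside that of Igkc in CPM for each library. Right, the ratio of their counts (lambda over kappa), with a dotted line at 1. The lambda sum stays between 3456 and 4117 CPM, whereas Igkc reaches 12387 CPM in HET 1, whose ratio is 0.292.

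The V segments were lowest and highest in the same libraries. Lambda took 16.7%, 35.4%, 34.6% and 50.9% of light chain V counts in HET and 32.7%, 35.1%, 43.1% and 38.6% in WT, from HET replicate 1 to HET replicate 4 at the extremes. The means were 34.4% ± 14.0 and 37.4% ± 4.52 (SD, n = 4 each), a difference of -2.97 ± 7.35 percentage points (SE, two-sided exact permutation p = 0.714, adjusted p = 1). Without HET replicate 1 it was 2.92 percentage points (exact permutation p = 0.629). In HET replicate 1 the kappa segments Igkv8-30 (31.7% of light chain V counts) and Igkv8-21 (18.6%) each exceeded all lambda segments together. In 5 of the other libraries no kappa V segment passed 6.34%, and in WT replicate 1 and WT replicate 4 Igkv8-30 reached 8.73% and 15.8%. The part of the antibody-secreting cell markers in the low ratio of HET replicate 1 was not tested.

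Ighv1-72 lies at chr12:115757984-115758461 on the minus strand. Its level was 62.9, 64.4, 118 and 55.4 CPM in HET and 30.1, 65.3, 58.3 and 261 CPM in WT. WT replicate 4 was the highest and WT replicate 1 the lowest, so the WT group spanned the whole range of 8.66-fold, the widest of the 8 genes. As a share of heavy chain V counts, which does not depend on library size, Ighv1-72 took 2.37%, 6.51%, 10.7% and 4.59% in HET and 2.31%, 6.05%, 4.82% and 17.6% in WT. Its 95% Wilson interval was 16.9% to 18.2% in WT replicate 4 and 2.07% to 2.58% in WT replicate 1. The means were 6.05% ± 3.55 in HET and 7.68% ± 6.76 in WT (SD, n = 4 each), a difference of -1.63 ± 3.82 percentage points (SE, two-sided exact permutation p = 0.771, adjusted p = 1). Without WT replicate 4 it was 1.66 percentage points in the other direction (exact permutation p = 0.543), and without HET replicate 1 it was -0.40 percentage points (exact permutation p = 0.971).

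Among 126 heavy chain V rows, Ighv1-72 ranked 5, 4, 2 and 3 in HET and 11, 2, 4 and 2 in WT. Its shares and ranks may also be understated if reads matching several segments were dropped. Summed over the libraries, 3 segments had more counts. Ighv1-81 led with 28.2% to 33.2% of heavy chain V counts in 7 libraries and 11.4% in HET replicate 1. Ighv1-26 (0.365% to 32.9%) and Ighv1-22 (0.0947% to 27.4%) owed their rank largely to HET replicate 1, in which both were highest. Ighv1-72 exceeded both in HET replicates 2, 3 and 4 and in WT replicates 2, 3 and 4. V counts come from all cells in a library and do not show which heavy and light chains were paired in a cell.

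**Figure D3:**
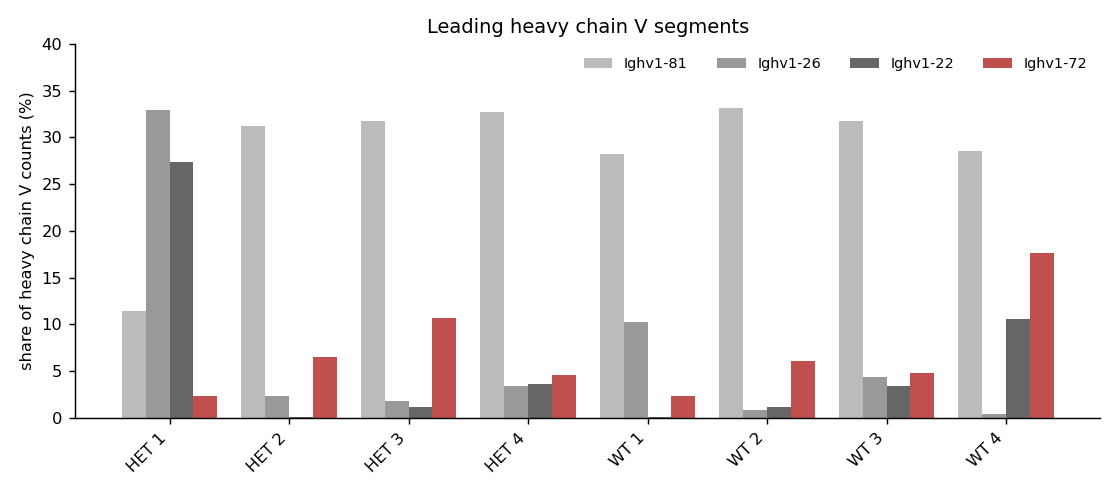
Share of heavy chain V counts in percent held by the 4 segments with the most summed counts, with 1 group of bars per library and Ighv1-72 in red. Ighv1-81 is between 28.2% and 33.2% in every library but HET 1 (11.4%), and Ighv1-72 ranges from 2.31% in WT 1 to 17.6% in WT 4.

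The share of Ighv1-72 and the log2 lambda to kappa ratio showed no relation across the 8 libraries that passed the threshold. Pearson's r was 0.276 (exact permutation p = 0.437, adjusted over 2 relations 0.437) and Spearman's rho was 0.214 (exact permutation p = 0.619, adjusted 0.619). Without WT replicate 4 and HET replicate 3, the libraries farthest from the median share, r was 0.593 over 6 libraries (exact permutation p = 0.215). Without HET replicate 1 alone r was -0.19 (exact permutation p = 0.692). WT replicate 4, with the largest Ighv1-72 share, had a ratio of 0.787 and the largest Iglv2 share, and HET replicate 4, with the largest ratio, had an Ighv1-72 share of 4.59%.

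**Figure D4:**
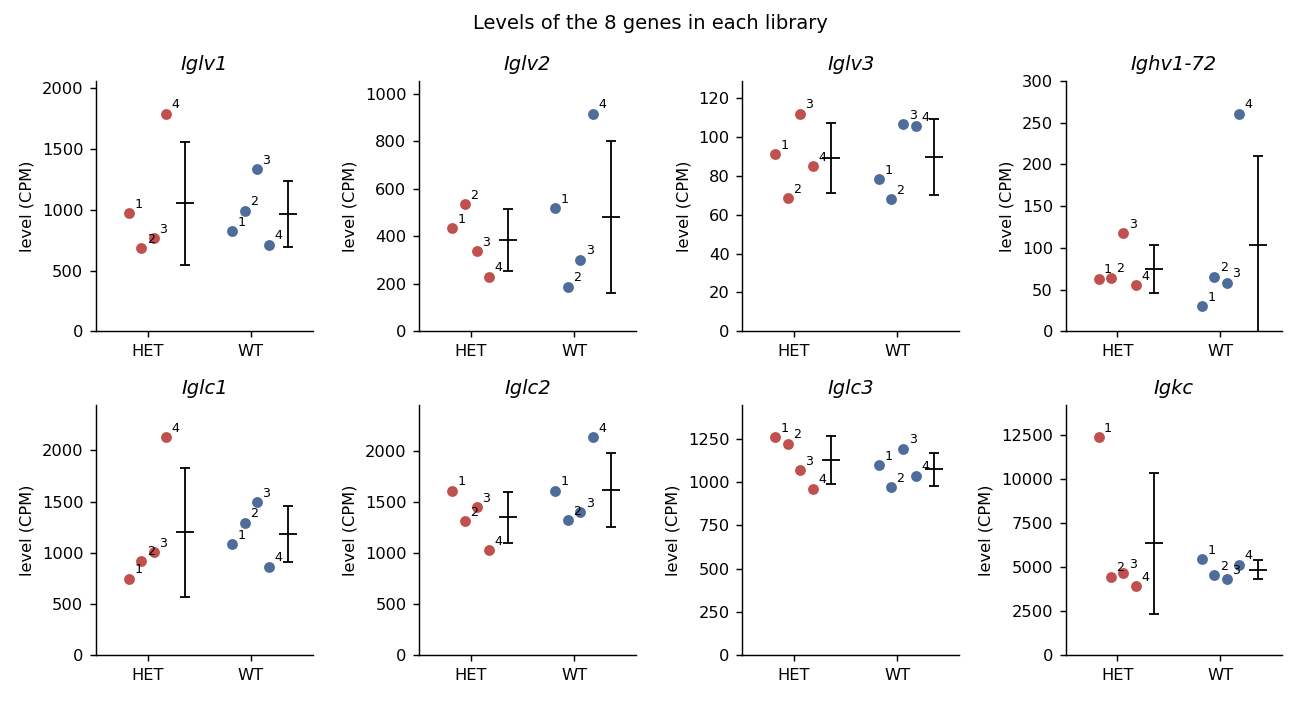
Level in CPM (linear axis from 0) of each of the 8 genes, with 1 numbered point per library and the mean ± SD of 4 libraries in black (the WT bar of Ighv1-72 is clipped at 0). HET and WT points overlap in every panel, and single libraries stand far from the rest for Igkc (HET 1, 12387 CPM) and Ighv1-72 (WT 4, 261 CPM).

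None of the 8 genes was called between HET and WT. In the edgeR fit over 12744 genes, 3 were called at an adjusted p under 0.05 (0.0235%), and 0 of the 8 were, with adjusted p from 0.801 to 0.996. None of the 8 had an unadjusted p under 0.05, against 7.22% of all genes, and the groups overlapped in CPM for all 8, against 4.61% of genes without overlap. DESeq2 called 1.27% of the genes to which it gave an adjusted p and 0 of the 8, with adjusted p from 0.683 to 0.998. The log2 fold change of HET over WT was positive for 4 and negative for 4, with a median of 0.006 beside -0.001 over all genes.

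The intervals show how much could have gone unseen. Iglc3 was best bounded, at 0.07 ± 0.09 on the log2 scale (SE, 95% interval -0.13 to 0.27), followed by Iglc2 at -0.26 ± 0.17 (-0.65 to 0.13) and Iglv3 at -0.01 ± 0.18 (-0.40 to 0.38). For Iglc1 the log2 fold change was 0.02 ± 0.37 (-0.87 to 0.91), and for Iglv1 it was 0.12 ± 0.36 (-0.74 to 0.99). The widest intervals belonged to Iglv2 at -0.32 ± 0.54 (-1.62 to 0.98), Igkc at 0.39 ± 0.41 (-0.61 to 1.38) and Ighv1-72 at -0.47 ± 0.71 (-2.16 to 1.23). A change of 1 log2 unit in at least 1 direction was inside the interval for Ighv1-72, Iglv2 and Igkc. The biological coefficient of variation fitted by edgeR was 0.141 for Iglc3 and 0.659 for Ighv1-72, with a median of 0.357 over the 8 and 0.313 over all genes tested.

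**Figure D5:**
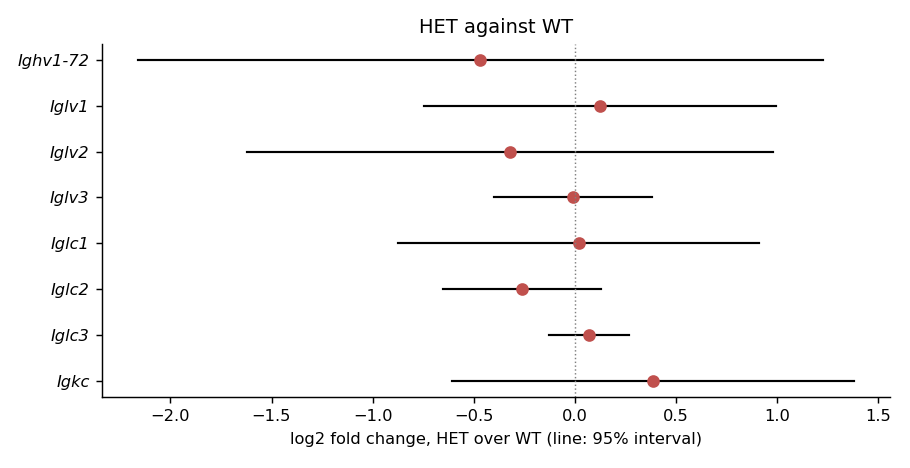
Log2 fold change of HET over WT for the 8 genes (points) with the 95% interval of the edgeR fit (lines) and a dotted line at 0. Every interval includes 0, from the narrowest for Iglc3 (-0.13 to 0.27) to the widest for Ighv1-72 (-2.16 to 1.23).

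Single libraries set the direction for several genes. Without HET replicate 1 the Igkc difference went from 0.39 to -0.16 (edgeR adjusted p = 0.696). The others kept their sign without it, at -0.39 for Ighv1-72, 0.165 for Iglv1, -0.38 for Iglv2, -0.015 for Iglv3, 0.195 for Iglc1, -0.35 for Iglc2 and 0.02 for Iglc3 (edgeR adjusted p 0.664 or more). Without WT replicate 4 that of Ighv1-72 went from -0.47 to 0.55 (edgeR adjusted p = 0.846) and that of Iglv2 from -0.32 to 0.20 (adjusted p = 0.977). Without HET replicate 4 the Iglv1 difference turned to -0.26 (edgeR adjusted p = 0.909) and the Iglc1 difference to -0.41 (adjusted p = 0.772).

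The other genes of the antigen receptor pathway were read from a list of 25 genes, of which 22 were in the count table and 20 were tested. Of these 6 had a positive and 14 a negative log2 fold change, none was called by edgeR or by DESeq2, and the median was -0.06. An unadjusted edgeR p under 0.05 was found for 4 of the 20, against 7.22% of all genes tested. These were Cd79a, Cd79b, Ighd and Ebf1, of which Cd79a and Cd79b are also among the 6 B cell markers with negative log2 fold changes. The 3 lowest p belonged to Cd79b, a signaling chain of the receptor (2530 ± 200.6 CPM in HET and 2990 ± 124 in WT, SD, n = 4 each, log2 fold change -0.24, edgeR adjusted p = 0.354), to Ighd, the IgD constant gene (1580 ± 207 and 1910 ± 107 CPM, log2 fold change -0.27, edgeR adjusted p = 0.527), and to Ebf1, a transcription factor of B cell identity (224 ± 5.61 and 278 ± 41.8 CPM, log2 fold change -0.31, edgeR adjusted p = 0.576). Ighm, the IgM constant gene and partner of these light chains, was 15400 CPM in HET replicate 1 and 6150 to 7660 CPM in the other 7 libraries.

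Outside the immunoglobulin loci, 7051 genes whose log2 CPM averaged 4 or more were ranked by how closely their log2 CPM followed that of the receptor genes over the 8 libraries. For the summed lambda constant level, which itself varied only 1.19-fold, the 5 highest Pearson r belonged to Ate1 (0.967), Trib2 (0.961), Cd81 (0.949), Khdrbs1 (0.945) and Terf2ip (0.926). Cd81 encodes a tetraspanin. For Ighv1-72 they belonged to Llgl1 (0.938), Dlst (0.932), Snx1 (0.931), Klhl42 (0.931) and Creb1 (0.929). With 8 libraries and this many genes, values of this size are a description and carry no test.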

How the data were processed

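RNA was measured by SMART-Seq2 in 8 libraries of sorted B cells (4 HET, 4 WT). Per the study's methods, after a FastQC check the authors used HISAT2 2.2.1 for alignment to GRCm38 (mm10) and HTSeq for counting. Neither the annotation release, the strand setting nor the treatment of multiply aligned reads was stated, and near-identical segments may share reads. The authors deposited whole-number read counts per gene symbol and, in a second table, TPM values. Lengths implied by the deposited TPM were longer than the exons for the V segments and for Iglc2 (about 1204.5 against 612 bases). Levels per kilobase therefore used GENCODE M21 exon lengths, taken over all annotated exons of a gene. All columns matched a library by name.

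The test across genes used edgeR 4.0.16 in R 4.3.3 (filterByExpr, TMM, robust quasi-likelihood F-test, group as the only factor, Benjamini-Hochberg threshold 0.05). Each SE is the size of the log2 fold change over the root of its F statistic. The calculation was tested on simulated data. Shares and ratios were taken from counts of 1 library and compared by two-sided exact permutation tests over 70 arrangements, adjusted over 5 tests. Without molecular identifiers, intervals of shares cover counting error only. Alternatives were DESeq2 1.42.0, RLE factors, other filters, limma 3.58.1 (limma-trend) on log2(TPM + 1) and log2(TPM + 0.1), library sizes without immunoglobulin genes, a replicate block, leaving out each library and, added after seeing the data, the antisense row added to Iglc3. Sequences were read from GENCODE M21 transcripts on GRCm38.

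The 8 genes, the lists and the tests were chosen with earlier results of these data known. For 1 gene, left out of the B cell marker and receptor lists, results are not reported here. Named genes were all 8 members, the 3 receptor list genes with the lowest p, the 5 genes most like the lambda sum and Ighv1-72, and the 3 V segments ranked above Ighv1-72. Other genes named, such as 2010309G21Rik, Jchain, Lyz2 and the kappa V segments, were chosen after their values were seen.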

Additional observations from a re-analysis of the deposited data

Results flagged for a closer look

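Values in which 1 library lay far from the other 3 of its group were marked when its gap to the nearest exceeded Dixon's 95% limit, a set fraction of the group's range. Of 34 groups of 4 values 3 were marked, and chance alone marks about 1 in 20, here 1.7. Igkc stood at 12390 CPM in HET replicate 1 while the other HET libraries lay at 3908 to 4650 CPM (gap 0.913 of the range). Ighv1-72 stood at 260.9 CPM in WT replicate 4 while the other WT libraries lay at 30.1 to 65.3 CPM (gap 0.847). Ighv1-72 also stood at 117.8 CPM in HET replicate 3 while the other HET libraries lay at 55.4 to 64.4 CPM (gap 0.855). The groups share libraries and genes, so these marks are not independent.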

How the results depend on the processing

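Over 128 refits of the 8 log2 fold changes (16 alternatives for each gene), 113 kept their direction, 15 changed it and 0 passed the threshold (lowest adjusted p 0.611). Iglc2 and Iglc3 kept theirs in all 16, though leaving out 1 library each moved Iglc2 between -0.35 (without HET replicate 1) and -0.10 (without WT replicate 4) and Iglc3 between 0.02 (without HET replicate 1) and 0.14. Leaving out 1 library each gave log2 fold changes of -0.78 to 0.55 for Ighv1-72, -0.16 to 0.56 for Igkc, -0.41 to 0.20 for Iglc1, -0.26 to 0.33 for Iglv1, -0.59 to 0.20 for Iglv2 and -0.13 to 0.10 for Iglv3. On log2(TPM + 1) and on log2(TPM + 0.1) Iglc1 was -0.13. Leaving out 1 library each moved the difference in the log2 lambda to kappa ratio from -0.53 to 0.09 (pooled counts per group gave -0.66), in the lambda V share from -8.48 to 2.92 percentage points, in the Ighv1-72 share from -3.42 to 1.66, in the Iglc1 share from -5.39 to 4.98 and in the Iglv1 share from -4.86 to 7.96, without reaching the threshold, and r from -0.19 to 0.385 for Ighv1-72 share against ratio and from 0.642 to 0.988 for Iglv1 against Iglc1. With deposited TPM values the Iglc1 share difference was -0.274 percentage points, since the lengths differ. The number of genes called over the whole table was 3, against 38 with no filter, 1 with a mean of at least 10 counts, 77 with DESeq2, 0 on log2(TPM + 1), 1 on log2(TPM + 0.1) and 1 to 6 without 1 library (6 without WT replicate 1), and the cause was not tested.

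Same-numbered HET and WT libraries did not deviate together (correlations -0.0511, 0.0129, 0.00279 and -0.0262). The numbers thus gave no sign of pairing, though such correlations cannot exclude a small shared effect. With the replicate block 0 genes were called, Ighv1-72 was 0.014 and Iglc1 was -0.10 on the log2 scale, and no member passed the threshold.

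Every member held at least 317 counts in each library and the widest Wilson interval of a lambda share was 2.10 percentage points. The 4 libraries of a group, each of 200 cells, came from 1 pool.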
